A study of Mus musculus with 6 samples.

Results

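Wee1, Ccnd1, Ccnd3, Ccnf, Cdkn1a, Gadd45g and Plk3 are 7 genes of cell cycle control, some of them known targets of the circadian clock. They were taken by gene symbol and not by level: every probe set whose only gene symbol was one of the 7 was followed on all arrays. Their choice was made with earlier results of these data known. The 7 genes had 9 of the 10833 probe sets with a single symbol, controls left out, and made up 7 of the 8251 genes on the array. Of the 7, 6 had a mean level of at least 606 scaled units, the level below which no value was read here (the floor), as did 4844 of the 8251 genes. Cdkn1a did not, and its values are given without being counted.

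Liver total RNA was measured with Affymetrix mouse arrays of one colour, 6 in all. Each of 3 genotypes has 1 array at CT02 and 1 at CT14, that is 2 h and 14 h of circadian time, early in the subjective day and early in the subjective night. All mice were male and 8 to 10 weeks old. The wild-type mice had a C57BL/6 background. For the Clock mutant, allele and strain are not given in these sources. Of the Cry-deficient arrays, the one at CT02 is labelled as a double knockout of Cry1 and Cry2 and the one at CT14 only as Cry deficient. Whether an array holds the RNA of several animals is not given either. With 1 array per group no difference below has a replicate check or a test, and a time, a genotype and the array that carries them cannot be told apart.

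The liver clock is a feedback loop in which CLOCK and ARNTL (BMAL1) activate genes through E-box motifs, and the PER and CRY proteins that they induce repress them. The REV-ERB and ROR receptors act on RORE motifs, and DBP and TEF on D-boxes. The loop is linked to cell division chiefly through Wee1, which encodes the kinase that places the inhibitory phosphate on CDK1 and so delays entry into mitosis, and whose promoter carries E-boxes. Ccnd1 and Ccnd3 encode D-type cyclins, which activate CDK4 and CDK6 in G1 phase. Ccnf encodes the F-box protein cyclin F, the substrate receptor of a ubiquitin ligase. Cdkn1a encodes the kinase inhibitor p21, a classic p53 target. Gadd45g is a growth arrest and stress gene, and Plk3 is a stress-responsive polo-like kinase. Adult hepatocytes are mostly quiescent, so the transcripts of dividing cells are scarce in this tissue.

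Promoter windows of 5 of the 7 genes, 7 windows in all, were in the RefSeq promoter table (assembly GRCm38.p6), which gives 250 bases before to 50 after each transcription start. The 250 bases before the start were searched on both strands. The E-box was searched as CACGTG. A variant of the E-box that many clock genes carry was searched as CACGTT. The core of the RORE, the element of the orphan receptors, was searched as AGGTCA. A second form of that same core was searched as GGGTCA. The D-box, bound by DBP and its relatives, was searched as TTANGTAA. The core of the cell cycle homology region (CHR), an element of genes that peak late in the cell cycle, was searched as TTTGAA. The box bound by the factor NF-Y was searched as CCAAT. Each pair of forms differs in a single letter, so they cannot match at the same position. The windows of Gadd45g, at chr13:51846425-51846674 on the plus strand, and of Ccnf, at chr17:24251410-24251659 on the minus strand, are shown because they hold the only E-box and the only CHR cores among the 7 windows. They run from 5′ to 3′ up to the base before the start, with each match in capitals.
Gadd45g: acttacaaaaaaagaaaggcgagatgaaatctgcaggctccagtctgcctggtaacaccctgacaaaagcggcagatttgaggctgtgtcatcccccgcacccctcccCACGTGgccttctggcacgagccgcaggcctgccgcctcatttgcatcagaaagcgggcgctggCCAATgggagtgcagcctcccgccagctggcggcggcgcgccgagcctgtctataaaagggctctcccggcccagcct
Ccnf: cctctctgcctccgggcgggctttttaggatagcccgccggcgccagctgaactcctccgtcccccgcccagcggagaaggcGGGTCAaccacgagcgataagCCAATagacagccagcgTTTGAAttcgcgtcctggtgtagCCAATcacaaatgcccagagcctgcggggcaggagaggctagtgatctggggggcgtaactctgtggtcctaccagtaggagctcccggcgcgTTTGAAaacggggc

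The Gadd45g window held a CACGTG at positions -142 to -137, counted from the transcription start, and a CCAAT at -78 to -74. Across 32851 windows of the same length, 6.02% held CACGTG. The Ccnf window held GGGTCA at -168 to -163, CCAAT at -147 to -143 and at -107 to -103, and TTTGAA at -130 to -125 and at -14 to -9. TTTGAA was in 16% of all windows, CCAAT in 33.8% and GGGTCA in 11.6%. One window of Ccnd3 held AGGTCA, on the minus strand at -97 to -92, as did 14% of all windows, and its other window held CCAAT at -108 to -104. The windows of Plk3 and Cdkn1a held none of the motifs. No member window held the E-box variant, which was in 3.85% of all windows, or the D-box, which was in 2.06%. A match is a description of the letters and not a binding site, and a window without one says nothing about the bases outside it.

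**Figure D1:**
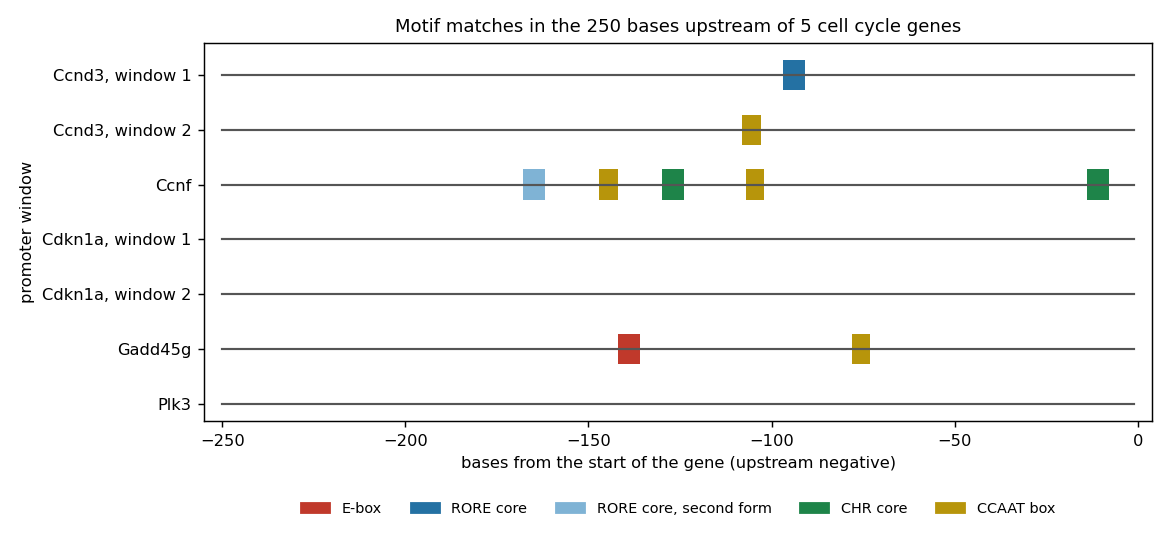
Motif matches in the 250 bases before the transcription start, for the 7 windows of 5 genes in the RefSeq table. The horizontal axis is the distance from the start in bases and each mark is 1 match on either strand. Gadd45g has the only E-box and Ccnf the only CHR cores.

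Of an array's deposited intensities 21.5% to 24.0% were at or below 0, and the mean intensity ranged from 1637 on the Clock mutant CT02 array to 2486 on the Cry-deficient CT14 array. Values were scaled between arrays on 6065 probe sets. The 3′ to 5′ ratio of the Actb control probes was 2.68 on the Clock mutant CT02 array and 1.70 on the Cry-deficient CT02 array, against 0.84 to 1.15 on the other 4, and the Gapdh ratio reached 2.37 on the latter and was 0.561 to 0.716 on the other 5. The tissue markers were present by mean level: all 9 hepatocyte markers on the array were kept, and their summed level ran from 98827 to 133708. Apoa1 among them reached the floor on only 3 of the arrays, those at CT02. All 11 macrophage markers were kept, with sums of 29443 to 53317, the highest on the Cry-deficient CT02 array. Of 7 T cell markers 5 were below the floor on every array, Cd3e among them, and all 3 cholangiocyte markers were. In bulk liver, fewer cells of a type and less RNA per cell cannot be told apart. Cry1 was at 1833 and 2723 scaled units on the wild-type arrays and at 3845 and 4718 on the Cry-deficient arrays. Where its probes lie relative to the deletion is not stated, so these values do not check the label.

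At least a 2-fold difference between CT02 and CT14 was seen for 1 of the 6 kept members in wild type (Ccnd1), where 4.56% of the 4844 kept genes differed as much. In the Clock mutant 3 of the 6 did (Ccnd3, Gadd45g and Plk3), beside 7.74% of kept genes. In the Cry-deficient mice 4 of the 6 did (Ccnd1, Ccnd3, Gadd45g and Plk3), beside 5.55%. These 3 comparisons share no array. A ratio with 1 array below the floor was counted at its lower bound, so Wee1 in wild type, at least 1.78-fold, was not counted. Ccnd3, Gadd45g and Plk3 moved at least 2-fold the same way between the times in both mutants, 3 of the 6, as did 38 of 4844 kept genes (0.784%). The members were chosen with earlier results of these data known, so this count is a description and no test. The ratios of all 3 genes use the mutant CT02 arrays, whose Actb 3′ to 5′ ratios were 2.68 and 1.70, and the part of RNA quality was not tested.

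Against wild type, 1 of the 6 was at least 2-fold apart in the Clock mutant at CT02 (Ccnd1, beside 11.8% of kept genes) and 2 at CT14 (Gadd45g and Plk3, beside 9.76%). In the Cry-deficient mice it was 1 at CT02 (Ccnf, beside 6.69%) and 2 at CT14 (Ccnf and Gadd45g, beside 4.73%). Between the mutants it was 1 at CT02 (Ccnd1, beside 16.1%) and 1 at CT14 (Wee1, beside 9.54%). Comparisons at the same time share an array. At CT02 the counts of 1 of 6 for the Clock mutant against either other genotype are close to the shares of all kept genes. Of the 6, 4 lie among the 1615 dimmest kept genes (mean level below 1595), of which between 6.75% and 19.4% were 2-fold apart, depending on the comparison.

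**Figure D2:**
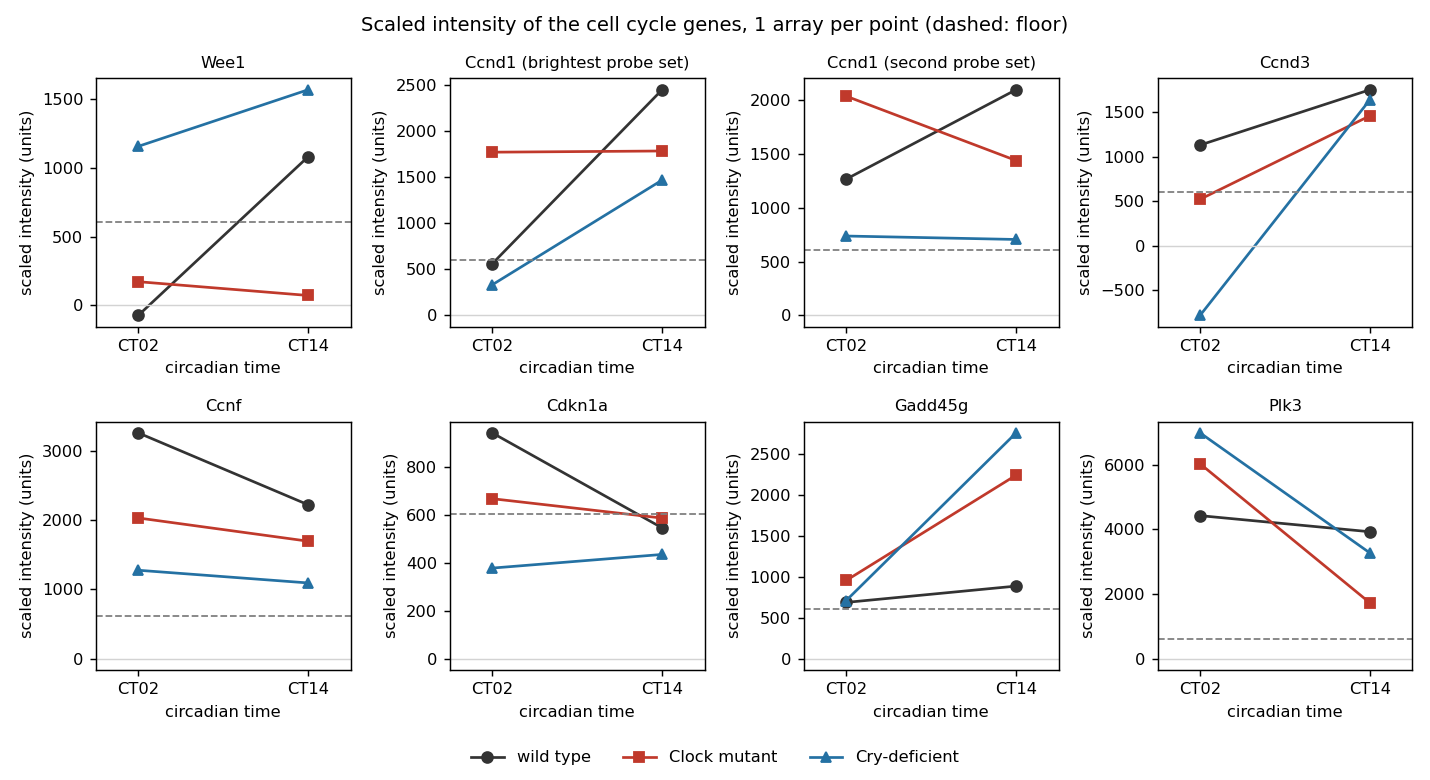
Level on each of the 6 arrays, in scaled units (vertical axis) at CT02 and CT14 (horizontal axis), with 1 point per array and a line per genotype. The second Cdkn1a probe set, below 0 on all arrays, is not drawn. The dashed line is the floor of 606 units, which Wee1 exceeds on 3 arrays and Gadd45g on all 6.

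Wee1 (probe set 101458_at) was readable on 3 of the 6 arrays. Its level was -72 scaled units at CT02 and 1080 at CT14 in wild type. It was 172 and 72 for the Clock mutant, and 1155 and 1566 on the Cry-deficient arrays. The 3 readable arrays were thus wild type at CT14 and both Cry-deficient arrays, while wild type at CT02 and both Clock mutant arrays lay under the floor.

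In wild type Wee1 was at least 1.78-fold higher at CT14 than at CT02, and 3.92% of kept genes were as far apart in that direction. No ratio between the times could be read in the Clock mutant. In the Cry-deficient mice CT14 was 1.36-fold above CT02. Values below the floor make most of these ratios bounds.

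Against wild type, Wee1 at CT02 was at least 1.91-fold higher in the Cry-deficient mice. At CT14 it was 1.45-fold higher in the Cry-deficient mice and at least 1.78-fold lower in the Clock mutant. The Cry-deficient ratio at CT02 reached a log2 of 1.02, past 2-fold, with lowess normalization. The only Wee1 ratio past 2-fold with the scaling used here lay between the mutants at CT14, where the Clock mutant was at least 2.58-fold lower, as were 2.6% of kept genes. At CT02 the Clock mutant was at least 1.91-fold lower, and past 2-fold with lowess normalization (-1.02). Scaled without the Cry-deficient CT02 array, the mean of Wee1 fell below the floor and the gene was not counted, although the log2 ratio at CT14 was -1.35 there. The bounds depend on where the floor is set. With a floor at the 25th percentile (28.7 scaled units) the log2 ratio of CT14 over CT02 in wild type was at least 5.23 in place of 0.83, and that of the Clock mutant over the Cry-deficient array at CT14 was -4.45 in place of -1.37.

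Of the 8251 genes, 297 reached the floor on exactly 3 arrays, and 23 of these, Wee1 included, on the same 3 arrays as Wee1. Among the 23, named here after their values were seen, was the clock output gene Dbp, which encodes a D-box activator. Dbp was at -392 and 750 scaled units for wild type, -284 and -85 for the Clock mutant, and 1836 and 2259 on the Cry-deficient arrays. The carbonyl reductase gene Cbr1 was another, at 518 and 1348, 150 and -12, and 1785 and 2381 in the same order. The macrophage marker Adgre1 was among the 23 as well, from 442 to 978 over the 6 arrays, and its part in the Wee1 values was not tested.

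Genes of most like pattern were sought among 3898 genes at or above the floor on all 6 arrays, by the root mean square difference of log2 levels centred on each gene's own mean. With Wee1 entered at the floor on 3 of the 6 arrays, the nearest were Sacm1l and Pdxk (0.16 each), Dynll1 (0.18), Ddx5 and Ngef (0.21 each), against a median of 0.60. Pdxk, the pyridoxal kinase gene, was at 4716 and 7486 for wild type, 3936 and 3672 for the Clock mutant, and 6610 and 8820 on the Cry-deficient arrays. Of the listed clock genes that could be ranked, Tef was 14th at 0.25, Nr1d1 730th at 0.49 and Per3 1409th at 0.56. Cry2, Bhlhe40, Rora, Nfil3, Clock and Arntl were farther than the median gene, from 0.66 to 0.93. Tef apart, the clock genes that could be ranked were thus not among the nearest. Per2, Cry1, Nr1d2, Dbp and Usp2 were below the floor on some of the arrays and were not ranked. The likeness rests on 6 arrays that the genes share, and it is a description.

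Of 14 listed clock genes with E-boxes or D-boxes 11 were on the array and 10 were kept. Per2, a negative limb gene of the loop, was at 251 and 4058 for wild type, 651 and 778 for the Clock mutant, and 3071 and 2665 on the Cry-deficient arrays. Usp2, a ubiquitin protease gene with clock-driven expression, was at 733 and 3404, -1781 and -1779, and 5264 and 3514. Both were thus low at CT02 in wild type and on both Clock mutant arrays.

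At CT02 the list's median log2 ratio of Cry-deficient over wild type was 1.60, with 7 of 10 genes at least 2-fold higher, against 0.00 over all kept genes, of which 2.73% were as much higher. At CT14 that median was 0.07, with 6 genes higher and 4 lower. The list holds Cry1 and Cry2, the genes of the knockout, and Cry1 is among the 7 counted at CT02. Where their probes lie relative to the deletions is not stated. For Clock mutant over wild type the list median was 0.05 at CT02, with 5 genes higher, 4 lower and 1 below the floor on both arrays. At CT14 all 10 were lower in the Clock mutant, with a median of -0.71, and 3 were lower by 2-fold or more, beside 5.64% of kept genes. A gene that was kept through the groups in which it is high had to differ, so these counts describe the list and do not test it.

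**Figure D3:**
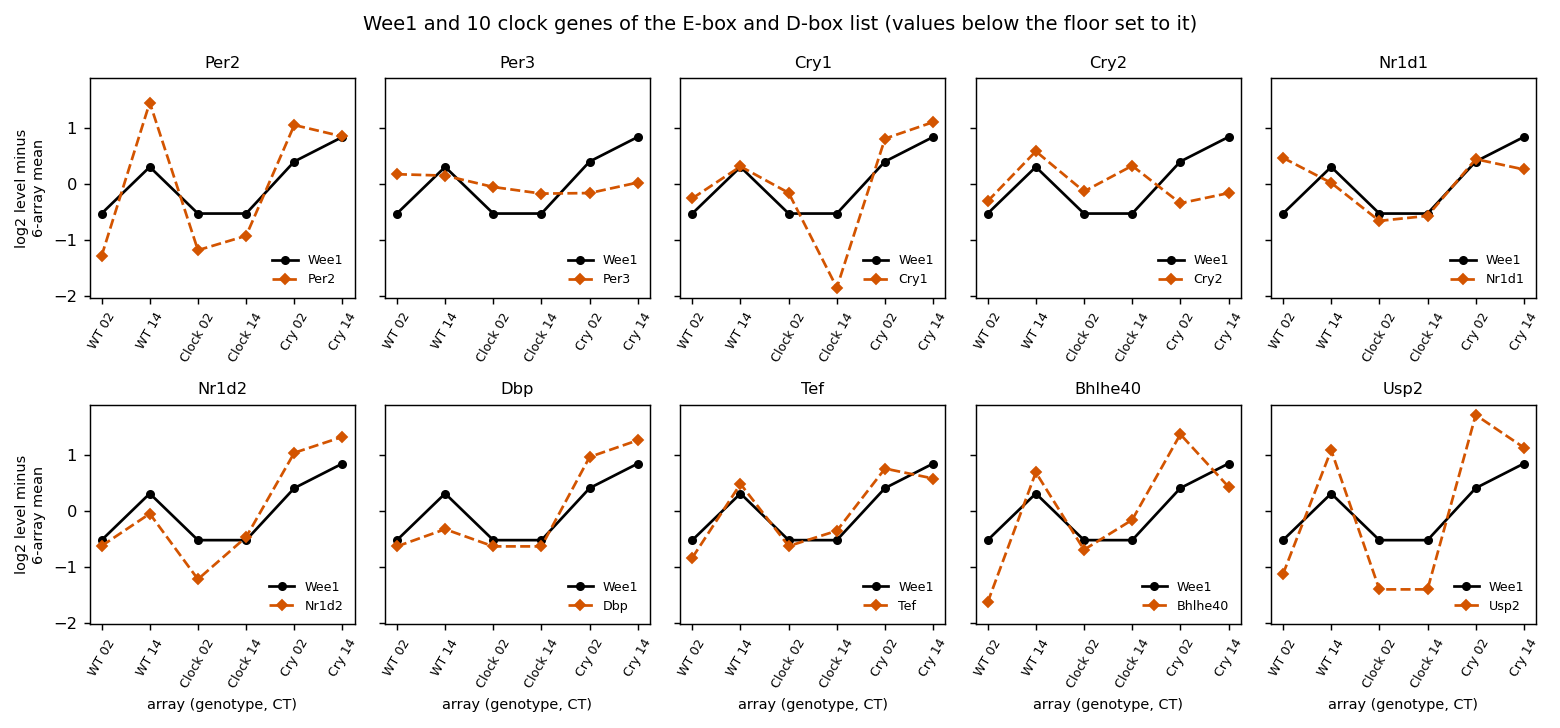
Log2 level minus the gene's own mean over the 6 arrays (vertical axis) on each array (horizontal axis), for Wee1 in black and, dashed, for each of the 10 kept clock genes with E-boxes or D-boxes. Values below the floor were set to it. Of those at or above the floor on every array, Tef runs closest to Wee1, with a root mean square difference of 0.25, and Nr1d1 departs from it in wild type.

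The target of Wee1 could not be read. Cdk1, whose product Wee1 inhibits, lay between -490 and -96 on the 6 arrays, and Ccna2, Top2a, Aurka, Bub1 and Cdc25c were below the floor on every array as well. The proliferation marker Mki67 was above it on 1 array, at 962 in the Clock mutant at CT02. Birc5 and Cdc25a were also above it on 1 array each. The cyclin gene Ccnb2 was above it on all 6 arrays, from 1158 to 2711. These genes were singled out after their values were seen.

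With the ratio of Wee1 a lower bound, Ccnd1 was the only member counted at least 2-fold apart between the times in wild type. Its brighter probe set (94231_at) was at 561 and 2452 scaled units for wild type at CT02 and CT14, 1773 and 1786 for the Clock mutant, and 332 and 1470 on the Cry-deficient arrays. It was below the floor at CT02 in wild type and in the Cry-deficient mice, and flat between the times in the Clock mutant. The second probe set (94232_at), which binds the same RNA samples and is no replicate, was at 1266 and 2097, 2037 and 1439, and 737 and 705. It was highest in wild type at CT14, as the first was, and lowest on the Cry-deficient arrays.

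In wild type the CT14 level was at least 4.04-fold that at CT02 by the brighter probe set, and 13 of 4844 kept genes (0.268%) rose as far. By the second it was 1.66-fold. In the Cry-deficient mice the ratio was at least 2.42-fold by the brighter and 1.05-fold lower at CT14 by the second, so the probe sets did not give the same answer there. With the probe sets averaged, the log2 ratio in the Cry-deficient mice was 0.84, under 2-fold. In the Clock mutant CT14 was 1.01-fold above CT02 by the brighter set, a sign that turned with quantile or lowess normalization (-0.06 each on the log2 scale), and 1.42-fold below it by the second. With the probe sets averaged it was -0.24.

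The Clock mutant at CT02 was at least 2.93-fold above wild type by the brighter probe set and 1.61-fold by the second. It was above the Cry-deficient array at CT02 by both, at least 2.93-fold and 2.76-fold. At CT14 the Cry-deficient array was 1.67-fold below wild type by the brighter probe set and 2.98-fold below it by the second, where 21 kept genes (0.434%) were as low. With the probe sets averaged this log2 ratio was -1.06. Both probe sets thus placed Ccnd1 lower on the Cry-deficient than on the wild-type array at CT14.

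By the same measure of likeness, the genes nearest Ccnd1 were Vegfa (0.29), Wdr45b (0.31), Rangap1 (0.35), Efhd2 (0.39) and Prkar1b (0.42), against a median of 0.82. The brighter probe set entered at the floor on 2 of the 6 arrays. The clock repressor gene Cry2 was 53rd at 0.54 and Per3 1515th at 0.79. The other 7 listed clock genes that could be ranked were farther than the median gene, from 0.87 (Clock) to 1.42 (Rora). Cry2 was at 1215 and 2256 for wild type, 1372 and 1886 for the Clock mutant, and 1185 and 1344 on the Cry-deficient arrays. Cry2 is itself a gene of the knockout, and where its probes lie relative to the deletion is not stated. On the Cry-deficient arrays Cry2 was close to wild type at CT02 and lower at CT14. The part of the deletion in these levels thus cannot be told apart.

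Ccnd3 (160545_at) was at 1131 and 1753 scaled units for wild type at CT02 and CT14, 521 and 1460 for the Clock mutant, and -784 and 1641 on the Cry-deficient arrays. All 3 genotypes were above the floor at CT14 and within 1.2-fold of wild type there. At CT02 only wild type was. CT14 was 1.55-fold above CT02 in wild type, at least 2.41-fold in the Clock mutant and at least 2.71-fold in the Cry-deficient mice. At CT02 each mutant was at least 1.87-fold below wild type, and at a log2 ratio of -1.01, past 2-fold, with the values as deposited. With the floor at the 25th percentile the log2 ratio of Cry-deficient over wild type at CT02 was -5.30 in place of -0.90, both bounds set by the floor.

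Ccnd3 is also abundant in lymphocytes, and the T cell marker Cd4 moved with it on the array where it was lowest. Cd4 was at 1931 and 3115 for wild type, 1668 and 2932 for the Clock mutant, and 189 and 2660 on the Cry-deficient arrays. The hepatocyte marker Hnf4a (871) and the macrophage marker C1qa (1508) were lowest on that same array too, against 4042 and 4779 in wild type at CT02. Most markers of these 2 cell types went the other way: 7 of 9 and 10 of 11 were higher there than in wild type at CT02. Of the 7 T cell markers on the array only Cd4 was kept, and Cd3d, Cd3e, Cd3g, Cd8a and Thy1 were below the floor on all arrays. Cd247 ran from 476 to 640 and reached the floor on 3 arrays. The list's summed level ran from 2667 to 3821 on 5 of the arrays, with 903 on that of Cry-deficient mice at CT02. Most of the sum on those 5 arrays was Cd4 itself, so it is no separate reading of the list. The B cell sums ran from 8721 to 12193. The part of these cells in the Ccnd3 values was not tested. Ccnd3 was also lowest on the CT02 arrays of the mutants, whose Actb 3′ to 5′ ratios were 2.68 and 1.70, and the part of RNA quality was not tested.

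Ccnf (99073_at) was readable on every array. It was at 3254 and 2217 scaled units for wild type at CT02 and CT14, 2027 and 1692 for the Clock mutant, and 1273 and 1090 on the Cry-deficient arrays. The CT14 value was 1.47-fold, 1.2-fold and 1.17-fold below the CT02 value, all under 2-fold. With the values as deposited the log2 ratio turned from -0.26 to 0.24 in the Clock mutant, where the median of all kept genes was itself 0.45, and was -0.02 in the Cry-deficient mice. At each time the order was wild type, then Clock mutant, then Cry-deficient.

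Ccnf was 2.56-fold lower on the Cry-deficient than on the wild-type array at CT02, where 83 kept genes (1.71%) were as low. It was 2.03-fold lower at CT14, beside 2.13% of kept genes. The pairs of arrays at the 2 times are separate, and 23 of 4844 kept genes (0.475%) were at least 2-fold lower in both. The CT14 ratio is near the threshold: with the values as deposited its log2 was -0.97 in place of -1.02. The Clock mutant was 1.61-fold below wild type at CT02 and 1.31-fold at CT14, and 1.59-fold and 1.55-fold above the Cry-deficient arrays, all under 2-fold. With the values as deposited the first of these passed 2-fold, at a log2 ratio of -1.24, beside a median of -0.52 over all kept genes.

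Cdkn1a was near the floor throughout. Its brighter probe set (94881_at) was at 943 and 546 scaled units for wild type, 668 and 587 for the Clock mutant, and 378 and 435 on the Cry-deficient arrays, with a mean of 593, just below the 606 that would have kept it. Wee1, with a mean of 662, was the member just above. The second probe set (98067_at) was below 0 on all 6 arrays, from -3813 to -1861, and reads nothing. Cdkn1a was readable only on the CT02 arrays of wild type and the Clock mutant.

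Wild type at CT02 was at least 1.55-fold above wild type at CT14 and above the Cry-deficient array at CT02. With the floor at the 25th percentile the latter log2 ratio, Cry-deficient over wild type, was -1.32 in place of -0.64. The Clock mutant was 1.41-fold below wild type at CT02. No ratio could be read between wild type and either mutant at CT14. The genes of most like pattern were Mocos (0.04), Dctn5 (0.08), Setdb1 (0.09), Trim21 (0.10) and Krt31 (0.10) against a median of 0.35, a ranking in which Cdkn1a stood at the floor on 4 of the 6 arrays.

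Gadd45g (101979_at) was at 685 and 884 scaled units for wild type at CT02 and CT14, 953 and 2238 for the Clock mutant, and 708 and 2754 on the Cry-deficient arrays. The CT14 arrays of both mutants were high and the other 4 lay between 685 and 953. CT14 was 1.29-fold above CT02 in wild type, 2.35-fold in the Clock mutant and 3.89-fold in the Cry-deficient mice. In the Cry-deficient mice 28 kept genes (0.578%) rose as far. Against wild type at CT14, Gadd45g was 2.53-fold higher in the Clock mutant and 3.12-fold higher in the Cry-deficient mice, where 32 kept genes (0.661%) were as high. At CT02 the mutants were 1.39-fold and 1.03-fold above wild type, differences that turned to log2 ratios of -0.08 and -0.08 with the values as deposited. Its relative Gadd45a reached the floor on 2 of the 6 arrays and Gadd45b on 0.

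Plk3, read by a single probe set (161636_r_at), was at 4427 and 3928 scaled units for wild type, 6033 and 1722 for the Clock mutant, and 6991 and 3269 on the Cry-deficient arrays. The CT02 arrays of both mutants were the highest and the Clock mutant at CT14 the lowest. CT14 was 1.13-fold below CT02 in wild type, 3.50-fold below it in the Clock mutant, where 19 kept genes (0.392%) fell as far, and 2.14-fold below it in the Cry-deficient mice. With the values as deposited the last log2 ratio was -0.89, under 2-fold. At CT14 the Clock mutant was 2.28-fold below wild type, and the Cry-deficient array was 1.2-fold below it. At CT02 they were 1.36-fold and 1.58-fold above, and the former turned to a log2 ratio of -0.11 with the values as deposited. The Clock mutant was 1.9-fold below the Cry-deficient array at CT14, and past 2-fold, at -1.06, with the values as deposited. The mutant CT02 arrays, on which Plk3 was highest, are those with the high Actb 3′ to 5′ ratios, and the part of RNA quality was not tested.

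**Figure D4:**
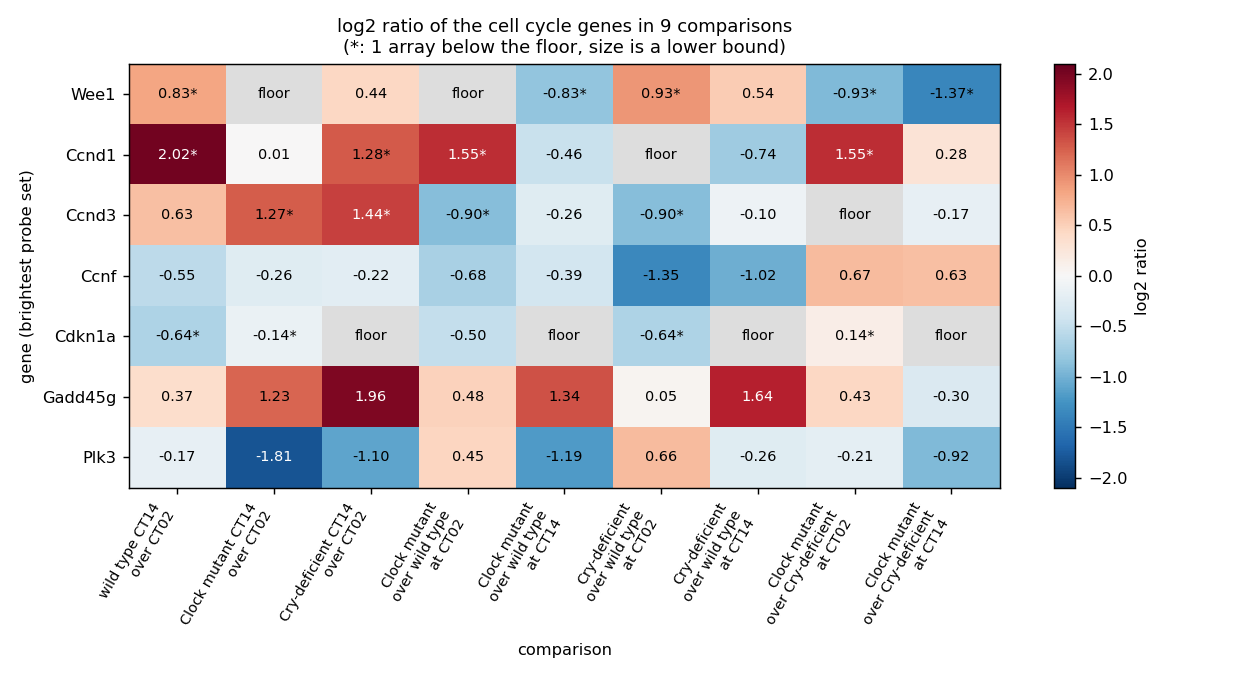
Log2 ratio of each gene (rows, brightest probe set) in the 9 comparisons (columns), coloured from blue for lower to red for higher. A star marks a bound, where 1 of the arrays was below the floor, and grey cells have both arrays below it. In the CT14 over CT02 columns of both mutants Ccnd3 and Gadd45g are at 1.23 or more and Plk3 is at -1.10 or less.

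The difference between a mutant's time ratio and that of wild type uses 4 arrays and has no test here. For Gadd45g it was 0.86 on the log2 scale in the Clock mutant and 1.59 in the Cry-deficient mice. For Plk3 it was -1.64 and -0.92. For Ccnd1 it was -2.01 and -0.74 by the brighter probe set and -1.23 and -0.79 by the second, with values at the floor entering the former. For Ccnf it was 0.29 and 0.33, both small. The wild-type arrays enter both differences.

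The wider cell cycle machinery was read through 6 lists, which hold the members as well. Their counts and medians thus include the members. Of 26 G1 and S phase genes 19 were on the array and 10 were kept. Between the times in wild type 6 were higher and 4 lower at CT14, with a median log2 ratio of 0.24 against 0.00 over all kept genes. Of the 10, 2 were at least 2-fold higher, the member Ccnd1 and Tfdp1, beside 2.48% of kept genes. Tfdp1, the dimerisation partner of E2F factors, was at 1291 and 2699 for wild type, 2281 and 2262 for the Clock mutant, and 1630 and 2302 on the Cry-deficient arrays. It was 2.09-fold higher at CT14 in wild type. In the Clock mutant 1 of the 10 was at least 2-fold higher at CT14, Ccnd3, and the median was 0.01. In the Cry-deficient mice 2 were, Ccnd1 and Ccnd3, with a median of 0.17.

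Against wild type at CT14, 4 of the 10 were higher and 6 lower in the Clock mutant, with none reaching 2-fold, as 9.76% of kept genes did. The ratio of Cdk2 there, at least 1.97-fold lower, is a bound. In the Cry-deficient mice 3 were higher and 7 lower. Cks1b, which encodes a small subunit of cyclin-dependent kinases, was the 1 past 2-fold, beside 4.73% of kept genes. It was at 1090 and 2043 for wild type, 1361 and 1599 for the Clock mutant, and 318 and 808 on the Cry-deficient arrays, 2.53-fold below wild type at CT14.

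Of 23 G2 and M phase genes 19 were on the array and 9 were kept, with 8 below the floor on every array. None of the 9 reached 2-fold between the times in wild type, where 4.56% of kept genes did and the list median was 0.15. The ratio of Wee1 there, at least 1.78-fold, is a lower bound. Ccnb2, the B2 cyclin, was at 1370 and 1238 for wild type, 2320 and 2711 for the Clock mutant, and 1158 and 1347 on the Cry-deficient arrays. It was 2.19-fold above wild type in the Clock mutant at CT14. Ttk, a spindle checkpoint kinase gene, was at 939 and 1368, 137 and 1532, and 824 and 640, and was 2.14-fold below wild type on the Cry-deficient array at CT14. Plk1, the mitotic relative of Plk3, was at 925 and 1415, -503 and 552, and 1129 and 906, at least 2.33-fold below wild type in the Clock mutant at CT14.

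Only 2 of the 8 CDK inhibitors were kept, and 4 were below the floor on every array. Cdkn2c, the p18 inhibitor of CDK4 and CDK6, was at 3968 and 2947 for wild type, 4013 and 3542 for the Clock mutant, and 2440 and 2601 on the Cry-deficient arrays. Cdkn2d, the p19 inhibitor, was at 864 and 1110, 509 and 1019, and 160 and 231. At CT14 both were lower on the Cry-deficient array than on the arrays of the other genotypes, and Cdkn2d was below the floor on both Cry-deficient arrays.

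Of 24 genes of the DNA damage and p53 response 20 were on the array and 12 were kept. In wild type 3 were higher and 9 lower at CT14, with a median of -0.14, and 2 were lower by 2-fold or more, beside 2.09% of kept genes. These were the antiproliferative gene Btg1, at 2554 and 1062, which was 2.40-fold lower, and the cyclin G2 gene Ccng2, at 2635 and 1179, which was 2.23-fold lower. Ccng2 was at 1509 and 1218 in the Clock mutant and at 1326 and 2682 in the Cry-deficient mice, so there it was 2.02-fold higher at CT14. Plk2, another stress-responsive relative of Plk3, was at 3670 and 3526, 2369 and 2774, and 3335 and 1571, 2.12-fold lower at CT14 in the Cry-deficient mice.

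Of 24 replication genes 22 were on the array, 9 were kept and 10 were below the floor on every array. None of the 9 reached 2-fold between the times in any genotype, where 4.56% to 7.74% of kept genes did. Some of these ratios are lower bounds, that of Mcm5 in the Clock mutant (at least 1.61-fold) among them. Mcm5, a helicase subunit gene read by probe set 162102_r_at, was at 1022 and 1595, 974 and -181, and 2256 and 1366, and was 2.21-fold above wild type on the Cry-deficient array at CT02. Of 16 immediate early genes 15 were on the array and 8 were kept. The phosphatase gene Dusp1 was the 1 past 2-fold between the times in the Cry-deficient mice, 2.29-fold higher at CT14, beside 5.55% of kept genes. The medians of the replication and immediate early lists lay between -0.23 and 0.23 on the log2 scale in the time comparisons.

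**Figure D5:**
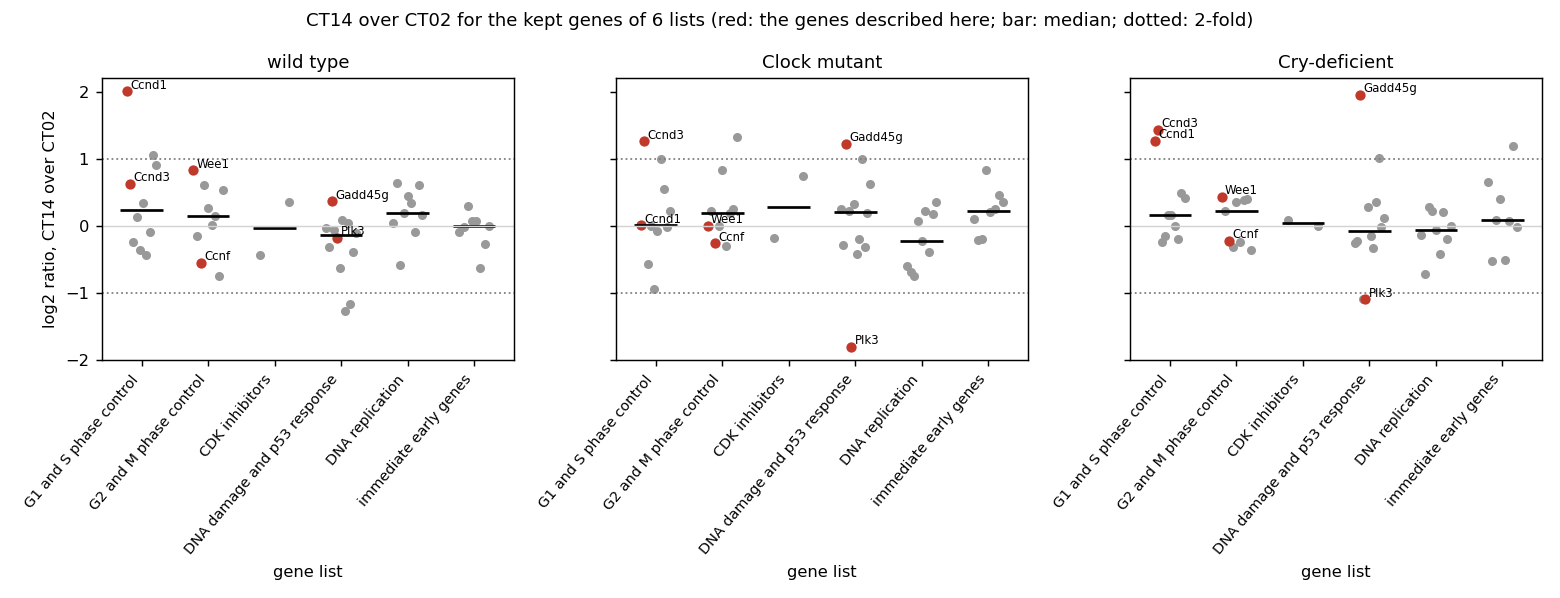
Log2 ratio of CT14 over CT02 (vertical axis) for each kept gene of the 6 pathway lists (horizontal axis), with 1 panel per genotype, bars at the list medians and dotted lines at 2-fold. The members described here are red. Ccnd1 at 2.02 in wild type, Plk3 at -1.81 in the Clock mutant and Gadd45g at 1.96 in the Cry-deficient mice stand farthest from 0 in their panels. Values below the floor were set to it, so some points are bounds.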

How the data were processed

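The values that the authors deposited are intensities, 1 for each probe set on each of 6 arrays, whole numbers that can be negative. Software and background subtraction are not given in these sources. Titles gave each array its group.

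Arrays were scaled by the median ratio of their values to the geometric mean over arrays, using 6065 probe sets of at least median level and positive on all arrays. Before log2, scaled values below the pooled median (606 units) were raised to it, the floor. A fold against the floor is a lower bound, written "at least", and none is given where both values were below it. Of 12488 probe sets, 10855 had 1 symbol in the platform annotation (10833 without 22 controls), 10839 of these matched RefSeq by gene number, and 396 had several symbols and 1237 none, which were left out with 66 controls. A gene is represented by its brightest probe set, and a second set is given beside it. Genes with a mean of at least the floor were kept, 4844 of 8251.

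There were 9 comparisons: CT14 over CT02 in each genotype, and each pair of genotypes at each time. With 1 array per group no test was made; ratios and counts at least 2-fold apart are descriptions. Depth does not apply to arrays, whose small number and signal over background limit the precision. Summed marker levels take values below 0 as 0. The named genes are the members, up to 4 genes per list with the largest ratio in a comparison, and the 5 genes of most like pattern to Wee1, Ccnd1 and Cdkn1a. The members and lists were chosen with earlier results of these data known. Alternatives were the values as deposited, quantile and lowess normalization (span 0.3), a floor at the 25th percentile, other filters on dim genes, the mean of a gene's probe sets, a 3-fold threshold, and scaling without an array. The procedure was tested on simulated data. Promoter sequences come from RefSeq (GRCm38.p6). Python 3.11.15, numpy 2.4.6, pandas 2.3.3, statsmodels 0.14.6 and matplotlib 3.10.9 were used.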

Additional observations from a re-analysis of the deposited data

Results flagged for a closer look

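The second Ccnd1 probe set moved in opposite directions between the times in wild type, where the log2 ratio of CT14 over CT02 was 0.73, and in the Clock mutant, where it was -0.50. The difference was -1.23 on the log2 scale. With 1 array per group the difference was not tested, and neither ratio reached 2-fold.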

How the results depend on the processing

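With 1 array per group and ratios that can be bounds, the counts of members at least 2-fold apart are small. Of 66 alternative counts 45 stayed within 1.5 times the count given, and of 349 alternative log2 ratios of members 8 changed sign, 0 of them with a ratio of 2-fold or more on either side. These were 5 with the values as deposited (Ccnf and Cdkn1a between the times in the Clock mutant, Gadd45g and Plk3 in the Clock mutant against wild type at CT02, and Gadd45g in the Cry-deficient mice at CT02) and 3 for Ccnd1 between the times in the Clock mutant, whose ratio was 0.01. With a 3-fold threshold the count was 1 for CT14 over CT02 in the Clock mutant and in the Cry-deficient mice and 1 for the Cry-deficient over wild type at CT14. It was 0 for the Clock mutant against wild type at both times, for the Cry-deficient over wild type at CT02, and for the Clock mutant over the Cry-deficient at both times. With the floor at the 25th percentile the count was 2 in wild type between the times, 3 for the Clock mutant against wild type at CT02, 4 for the Cry-deficient over wild type at CT02 and 3 between the mutants at CT02, since lower bounds grow with a lower floor. With the values as deposited it was 3 for the Clock mutant against wild type at CT02, where the median log2 ratio of all kept genes was itself -0.52, 2 for the Cry-deficient over wild type at CT02, 1 at CT14, and 2 between the mutants at CT14. Quantile and lowess normalization each gave 2 for the Cry-deficient over wild type at CT02 (where Wee1 reached 2-fold, at a log2 ratio of 1.02 by lowess) and 2 between the mutants at CT02. Scaled without the Cry-deficient CT02 array, the count between the mutants at CT14 was 0, because the mean of Wee1 over the remaining arrays fell below the floor. The share of all kept genes at least 2-fold apart ran from 2.82% to 9.96% with no filter on dim genes. No paired analysis was possible because every group has only replicate 1, so the numbers pair nothing. A fit of time with genotype as a block, which takes differences in the time effect between genotypes as its error, was not made.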
